A study of Mus musculus with 4 samples.

Results

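Chemokine receptors are the address system of T cells, and 9 of them that mark subsets of regulatory T (Treg) cells are described here: Cxcr5, Ccr7, Cxcr4, Cxcr3, Cxcr6, Ccr2, Ccr6, Ccr4 and Ccr8. They were chosen by gene symbol, and every probe with exactly 1 gene symbol equal to a member was taken. Each of the 9 had 1 such probe, and they are 9 of the 22180 genes measured on the arrays by a probe with 1 gene. The study sorted CD4+ Treg cells from mice that had received NP-OVA, a hapten coupled to ovalbumin, in CFA (complete Freund's adjuvant) 7 days before. The 4 groups were follicular regulatory T (TFR) cells of knockout mice (KO TFR), TFR cells of control mice (WT TFR), other Treg cells of knockout mice (KO non-TFR) and other Treg cells of control mice (WT non-TFR). TFR cells were PD1+CXCR5+YFP+ and non-TFR cells CXCR5-YFP+, where YFP reports Foxp3, the transcription factor of Treg cells. All mice carried FoxP3YFP-Cre, in which the Foxp3 locus drives YFP together with Cre recombinase, and KO mice in addition carried Prdm1fl/fl, so that Cre acts on Prdm1 in Foxp3-expressing cells. Prdm1 encodes Blimp-1, a transcriptional repressor. WT mice thus also express Cre in Treg cells. The number of mice behind an array, their age and their sex are not stated in the labels.

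Each group was represented by 1 Affymetrix Mouse Gene 2.0 ST array. There is therefore no replicate check, no error and no test for any value below, and precision is limited by the number of arrays. A level is the log2 value of a gene's probe after quantile normalization of the deposited values, and a difference is the gap between a pair of arrays on that log2 scale, where 1 is a factor of 2. Levels of different genes come from different probes and are not compared. The median gene had a mean level of 5.91, and no fold is given where the lower level was under it, because no detection calls show whether such values were above background. These are bulk samples, so that fewer cells of a type and less RNA per cell cannot be told apart.

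The gates used CD4, YFP for Foxp3, PD1 and CXCR5, which fixed those markers. All 6 T cell markers and all 6 Treg markers had mean levels above 5.91. Foxp3 stood at 11.87 in KO TFR, 12.36 in WT TFR, 12.42 in KO non-TFR and 12.45 in WT non-TFR cells. Of the 6 Treg markers, 5 were lower in KO TFR than in KO non-TFR cells, Il2ra at -1.23, and 49.98% of all genes were higher. Between the WT populations 3 were higher and 3 lower in TFR cells, and 51.7% of all genes were higher. In KO against WT cells 5 were lower and 1 higher among TFR cells, and 2 lower and 4 higher among non-TFR cells. The 5 measured follicular T cell markers other than Cxcr5 were all higher in TFR cells of both genotypes. At least 2-fold higher were 4 in KO mice, against 2.23% of all genes, and 4 in WT mice, against 2.69%. Both counts include Pdcd1 (1.72 in KO and 2.41 in WT mice), which encodes PD1 and was set by the gate. The others were Bcl6, Sh2d1a and Maf in KO mice and Icos, Sh2d1a and Maf in WT mice. All 5 were also higher in KO than in WT cells of both populations. The share of all genes higher in KO was 52.4% in TFR and 56.1% in non-TFR cells. Prdm1, the target of Cre, stood at 7.32 in KO TFR cells, against 8.21 in WT TFR cells, and 7.59 in KO non-TFR cells, against 7.80 in WT non-TFR cells. The labels do not say which exons are floxed or which the probe covers, and a probe outside the floxed exons would not test the deletion.

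Chemokine receptors are membrane proteins that couple to inhibitory G proteins and steer a cell up a gradient of their ligand. CCR7 keeps T cells in the T zone of lymph nodes, CXCR5 draws them into B cell follicles, and CXCR4 positions cells near CXCL12-producing stroma. CXCR3, CXCR6, CCR2, CCR6, CCR4 and CCR8 are acquired by activated and effector T and Treg cells and direct them towards inflamed tissue, skin, gut or dendritic cells.

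The promoters of Cxcr3, Ccr6, Ccr4 and Ccr2 are shown because, of the receptors with a promoter in the table used here, these 4 had the genotype differences of largest size in either population. The sequences are the 250 bases before the start site, from RefSeq, build GRCm38.p6. They cover chrX:101734148-101734397 on the minus strand for Cxcr3, chr17:8235793-8236042 and chr17:8242276-8242525 on the plus strand for the start sites of Ccr6, chr9:114496545-114496794 on the minus strand for Ccr4 and chr9:124101933-124102182 on the plus strand for Ccr2. Capitals mark, on either strand, GAAAG, the core of the Blimp-1 motif, and TCACAC, part of the site bound by T-box factors such as T-bet. They also mark AGGTCA, part of the site bound by ROR nuclear receptors.
Cxcr3: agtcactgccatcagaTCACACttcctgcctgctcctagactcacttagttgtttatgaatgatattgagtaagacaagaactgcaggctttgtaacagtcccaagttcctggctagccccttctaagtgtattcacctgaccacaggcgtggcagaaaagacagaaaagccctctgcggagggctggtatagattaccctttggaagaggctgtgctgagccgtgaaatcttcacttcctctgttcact
Ccr6 first start site: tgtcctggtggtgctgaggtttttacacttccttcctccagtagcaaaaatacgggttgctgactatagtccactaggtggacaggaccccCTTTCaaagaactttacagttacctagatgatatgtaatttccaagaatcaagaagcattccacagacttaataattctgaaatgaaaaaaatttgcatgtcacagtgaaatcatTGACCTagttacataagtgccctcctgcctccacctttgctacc
Ccr6 second start site: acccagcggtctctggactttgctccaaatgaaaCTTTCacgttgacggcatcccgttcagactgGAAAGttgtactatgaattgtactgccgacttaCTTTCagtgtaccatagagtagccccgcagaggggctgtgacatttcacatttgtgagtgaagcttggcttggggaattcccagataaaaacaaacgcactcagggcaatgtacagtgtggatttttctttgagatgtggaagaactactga
Ccr4: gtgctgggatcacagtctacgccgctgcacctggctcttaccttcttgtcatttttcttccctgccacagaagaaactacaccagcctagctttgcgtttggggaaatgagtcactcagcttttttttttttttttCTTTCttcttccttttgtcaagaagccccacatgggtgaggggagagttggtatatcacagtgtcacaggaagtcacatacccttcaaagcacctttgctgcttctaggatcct
Ccr2: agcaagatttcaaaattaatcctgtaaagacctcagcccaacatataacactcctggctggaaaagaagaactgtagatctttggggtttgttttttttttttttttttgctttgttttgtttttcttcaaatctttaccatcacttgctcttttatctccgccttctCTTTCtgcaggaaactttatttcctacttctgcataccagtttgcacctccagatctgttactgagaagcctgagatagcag
Of the 9 genes, 7 had a promoter in the table, with 8 promoters in all. GAAAG was in 6 of the 8 promoters, against 51.5% of the 32851 promoters of all genes over the same length. The second start site of Ccr6 had 3 matches, beginning at bases -216, -185 and -152 from the start. TCACAC was in 1 of the 8, that of Cxcr3 at base -234, against 12.3% of all promoters. AGGTCA was in 1 of the 8, that of the first start site of Ccr6 at base -44, against 4607 of the 32851. None of the motifs overlapped another. The Cxcr3 and Ccr8 promoters held no GAAAG in this window. These matches describe letters and do not show that a factor binds there.

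**Figure D1:**
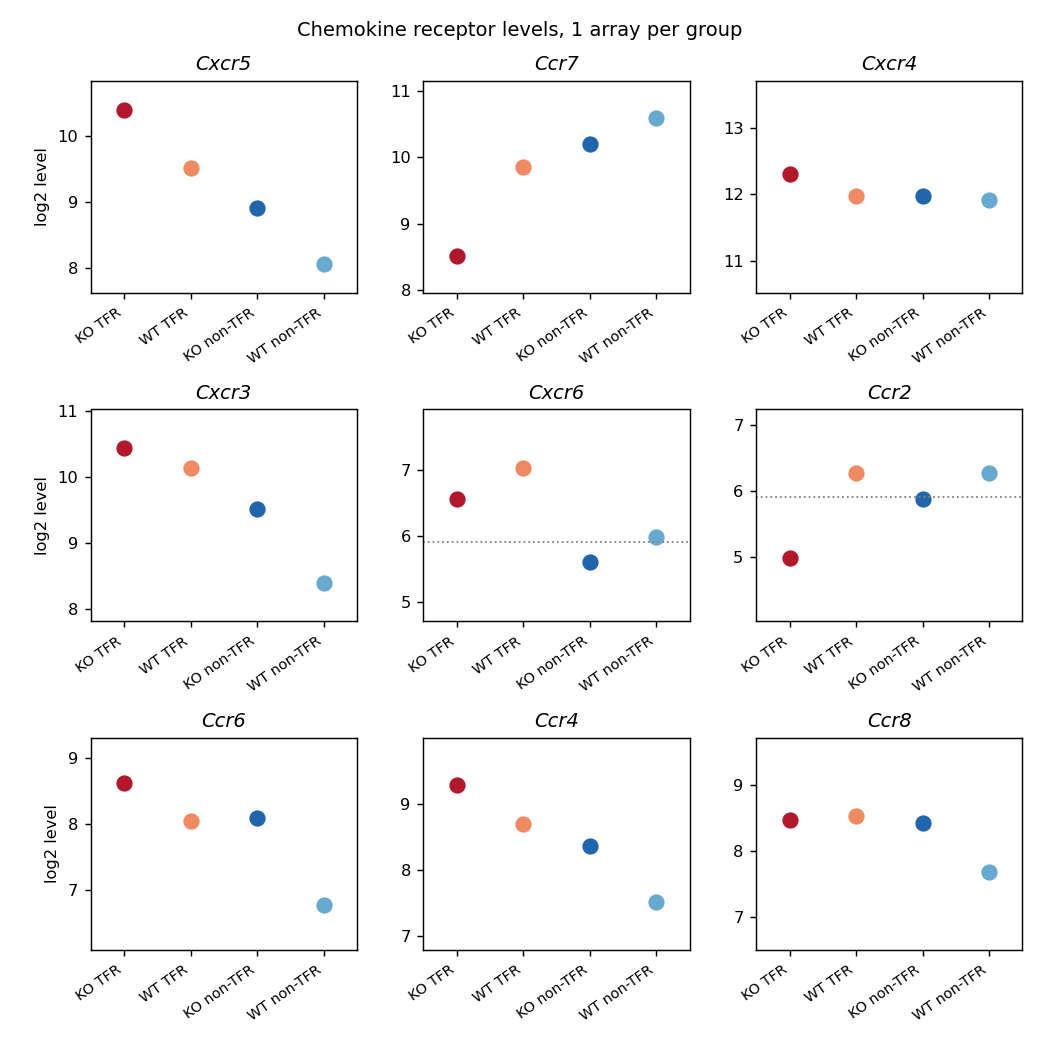
Level of each receptor gene (log2, y axis, spanning 3.2 units in every panel) on the KO TFR, WT TFR, KO non-TFR and WT non-TFR array (x axis), 1 point per array. Dotted lines mark the median gene at 5.91. Cxcr5, Cxcr3 and Ccr4 step down from KO TFR to WT non-TFR, and Ccr7 steps the other way.

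Among the receptors that place T cells within a lymph node, Cxcr5 is the receptor of CXCL13 and set the sort gate, so that its difference between TFR and non-TFR cells is a check of the sort and not a finding. Its level was 10.39 in KO TFR, 9.52 in WT TFR, 8.90 in KO non-TFR and 8.06 in WT non-TFR cells. Both TFR arrays lay above both non-TFR arrays, and within each population the KO array lay above the WT array. The population difference was 1.49 in KO and 1.46 in WT mice. The genotype difference was 0.87 in TFR cells and 0.84 in non-TFR cells, a 1.83-fold and a 1.79-fold higher level in KO. The KO non-TFR cells, gated as CXCR5-, thus had a higher Cxcr5 level than the WT non-TFR cells, which carried the same gate.

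Ccr7, the receptor of CCL19 and CCL21, had the opposite order. Its level was 8.52 in KO TFR, 9.86 in WT TFR, 10.21 in KO non-TFR and 10.59 in WT non-TFR cells. The KO TFR array stood apart, 1.34 below the next array, while the other 3 arrays were spread over 0.73. Ccr7 was 1.34 lower in KO TFR than in WT TFR cells (2.53-fold), and only 0.04% of all genes had a lower difference in that comparison. In non-TFR cells the genotype difference was -0.38 (1.30-fold lower in KO). Between populations Ccr7 differed by -1.69 in KO mice (3.23-fold lower in TFR) and by -0.73 in WT mice (1.66-fold lower in TFR).

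Cxcr4, the receptor of CXCL12, varied least of the 9. Its level was 12.30 in KO TFR, 11.98 in WT TFR, 11.98 in KO non-TFR and 11.92 in WT non-TFR cells. The largest of its 4 differences was 0.33, in KO TFR against either WT TFR or KO non-TFR cells, inside the middle 95% of all genes in both comparisons. The arrays other than KO TFR lay within 0.06 of each other.

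Among receptors of type 1 inflammation, Cxcr3 binds the interferon-induced chemokines CXCL9 and CXCL10 and marks Treg cells that express T-bet. Its level was 10.44 in KO TFR, 10.14 in WT TFR, 9.52 in KO non-TFR and 8.40 in WT non-TFR cells. The WT non-TFR array was the low one, 1.12 below the next. Cxcr3 was 1.74 higher in WT TFR than in WT non-TFR cells (3.33-fold), the highest population difference among the 9 in WT mice. In KO mice it was 0.92 higher in TFR cells (1.90-fold). The genotype difference was 0.31 in TFR cells (1.24-fold higher in KO), inside the middle 95% of all genes, and 1.12 in non-TFR cells (2.17-fold higher in KO), above 99.7% of all genes.

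Cxcr6, the receptor of CXCL16 found on tissue-resident and effector T cells, was the one member that was higher in TFR cells and lower in KO cells. Its level was 6.56 in KO TFR, 7.02 in WT TFR, 5.60 in KO non-TFR and 5.98 in WT non-TFR cells. The population difference was 0.96 in KO and 1.04 in WT mice (2.05-fold in WT). The genotype difference was -0.46 in TFR cells (1.38-fold lower in KO) and -0.38 in non-TFR cells. Both genotype differences lay inside the middle 95% of all genes, and the KO non-TFR level was under that of the median gene.

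Ccr2, the receptor of CCL2 known from monocytes and effector T cells, was close to the median gene on every array but KO TFR. Its level was 4.98 in KO TFR, 6.27 in WT TFR, 5.87 in KO non-TFR and 6.28 in WT non-TFR cells. The KO TFR array was the low one, by 0.89 from the next. The difference between KO TFR and WT TFR cells was -1.29, and only 0.04% of all genes had a lower one, but the KO TFR level was not shown to be above background. In non-TFR cells the genotype difference was -0.41. The population difference was -0.89 in KO mice and -0.00 in WT mice, where its sign changed with the scaling.

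The receptors linked to Th17-type, skin and tissue homing were Ccr6, Ccr4 and Ccr8. Ccr6 binds CCL20 and is shared by Th17 cells, Treg cells and B cells. Its level was 8.62 in KO TFR, 8.05 in WT TFR, 8.09 in KO non-TFR and 6.78 in WT non-TFR cells. The KO non-TFR and WT TFR arrays lay within 0.04 of each other, and WT non-TFR was the low array. Ccr6 was 1.31 higher in KO non-TFR than in WT non-TFR cells (2.48-fold), the highest genotype difference among the 9 and above 99.9% of all genes. In TFR cells it was 0.57 higher in KO (1.48-fold). The population difference was 0.53 in KO mice (1.44-fold) and 1.27 in WT mice (2.42-fold).

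Ccr4, which binds CCL17 and CCL22 made by dendritic cells, had a level of 9.28 in KO TFR, 8.69 in WT TFR, 8.36 in KO non-TFR and 7.51 in WT non-TFR cells. It followed the order of Cxcr5 and Cxcr3, with each array between 0.33 and 0.85 above the next. The genotype difference was 0.59 in TFR cells and 0.85 in non-TFR cells (1.80-fold higher in KO). The population difference was 0.92 in KO mice (1.89-fold) and 1.18 in WT mice (2.27-fold).

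Ccr8, the receptor of CCL1 and, in mice, CCL8, marks Treg cells of skin and tumours. Its level was 8.47 in KO TFR, 8.53 in WT TFR, 8.43 in KO non-TFR and 7.68 in WT non-TFR cells. The first 3 arrays lay within 0.10 of each other and WT non-TFR cells were lower. Ccr8 was 0.84 higher in WT TFR than in WT non-TFR cells (1.79-fold) and 0.74 higher in KO non-TFR than in WT non-TFR cells (1.67-fold). In KO mice the population difference was 0.04, and in TFR cells the genotype difference was -0.06. The 0.84 and the 0.74 share the WT non-TFR array, and the 0.04 and the -0.06 share the KO TFR array.

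**Figure D2:**
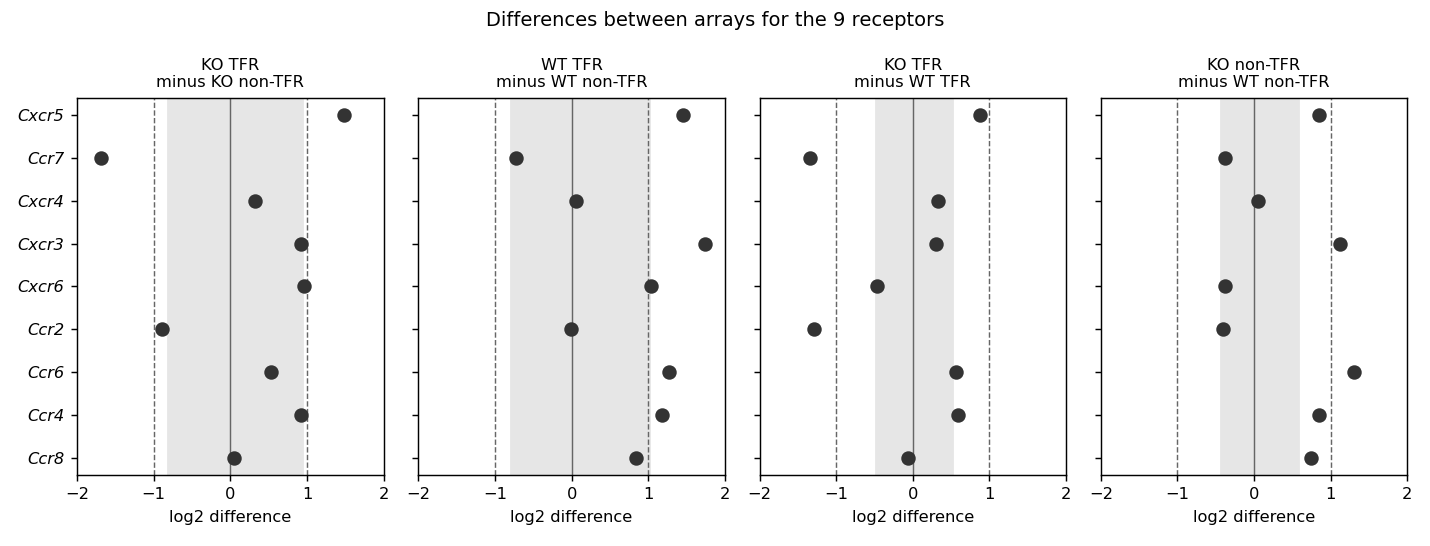
Log2 difference (x axis) of each receptor (rows) in the 4 comparisons (panels), 1 point per pair of arrays. Grey bands hold the middle 95% of all 22180 genes and dashed lines mark 2-fold. In KO mice Cxcr5, the gate gene, lies to the right of the upper 2-fold line, and Cxcr3, Ccr4 and Cxcr6 lie just left of it at 0.92 to 0.96; in WT mice these 4 and Ccr6 lie to its right.

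Read by comparison, WT TFR cells had higher levels than WT non-TFR cells of most of the receptors. The TFR gate also required PD1, so that what goes with PD1 and what goes with CXCR5 cannot be told apart. Of the 9, 7 had a positive difference, against 51.7% of all genes. Cxcr5, Cxcr3, Ccr6, Ccr4 and Cxcr6, 5 in all, passed 2-fold upward, against 2.69% of all 22180 genes. None passed 2-fold downward, against 1.18%, and 3.86% of all genes were 2-fold apart in either direction. Over all genes the 2-fold split was 596 higher and 261 lower, and 783 and 172 as deposited. The median difference of the 9 was 1.04, against 0.01 for all genes. Without Cxcr5, which the gate fixed, 4 of 8 receptors were at least 2-fold higher.

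In KO mice the same comparison had 7 of 9 receptors higher and 2 lower in TFR cells, where 49.98% of all genes were higher. Cxcr5 alone was at least 2-fold higher, against 2.23% of all genes, and Ccr7 alone at least 2-fold lower, against 1.18%. In either direction 3.41% of all genes were 2-fold apart. Without Cxcr5, which the gate fixed, 0 of 8 receptors were at least 2-fold higher and 1 of 8 at least 2-fold lower. Over all genes the split was 494 higher and 262 lower, and 686 and 156 as deposited. Cxcr3, Ccr4 and Cxcr6 were 0.92 to 0.96 higher, just under 2-fold. With the values as deposited these 3 passed 2-fold at 1.05, 1.07 and 1.06, so that 4 receptors were 2-fold higher. The deposited scale placed the median of all genes 0.12 higher in KO TFR than in KO non-TFR cells, and 0.11 higher in WT TFR than in WT non-TFR cells. The median difference of the 9 was 0.53, against 0.00 for all genes.

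Within TFR cells, Ccr7 was lower in KO by more than 2-fold. Ccr2 also passed 2-fold downward, but its KO TFR level was under that of the median gene and not shown to be above background. That makes 2 receptors 2-fold lower, against 0.162% of all genes, and 1 when only genes with a mean above the median gene are counted. None was 2-fold higher, against 0.289%. In either direction the share of all genes was 0.451%. Cxcr5 (0.87), Ccr4 (0.59) and Ccr6 (0.57) were higher in KO and above the middle 95% of all genes, which ended at 0.53. The median difference of the 9 was 0.31, against 0.01 for all genes.

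Within non-TFR cells, 6 of 9 receptors were higher in KO and 3 lower, where 56.1% of all genes were higher. Ccr6 and Cxcr3 were at least 2-fold higher, against 0.433% of all genes, and none was 2-fold lower, against 0.0766%. In either direction the share of all genes was 0.509%. Ccr4 (0.85), Cxcr5 (0.84) and Ccr8 (0.74) were also above the middle 95% of all genes, which ended at 0.58. Ccr2 (-0.41), Cxcr6 (-0.38) and Ccr7 (-0.38) were lower and inside that range. The median of the 9 was 0.74, against 0.03 for all genes.

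**Figure D3:**
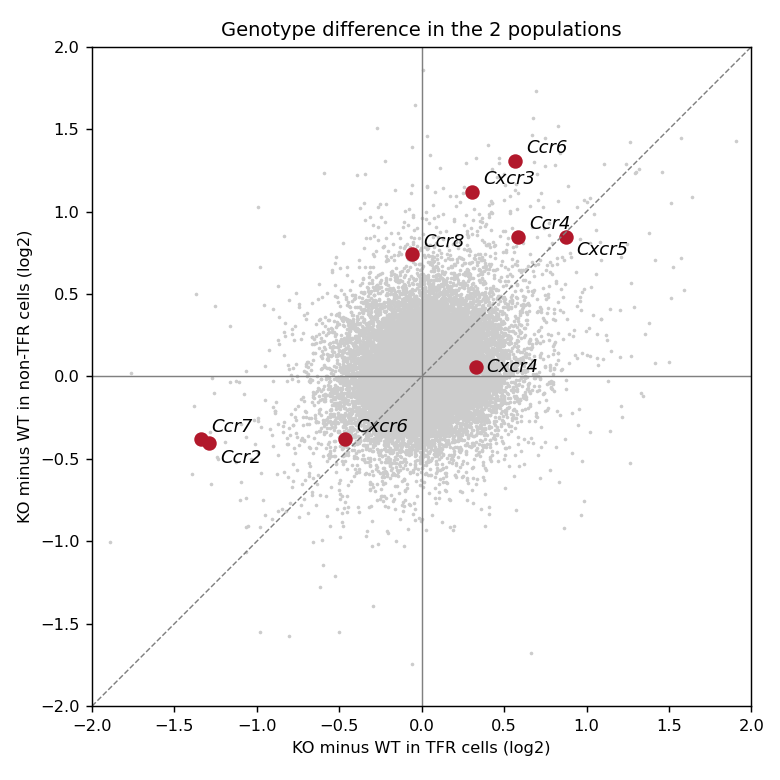
Genotype difference (KO minus WT, log2) in TFR cells (x axis) and in non-TFR cells (y axis), red for the 9 receptors and grey for all other genes. The dashed line marks equal differences, and 10 genes fall outside the axes. Cxcr3, Ccr6 and Ccr8 lie above the line, Cxcr5 close to it, and Ccr7 and Ccr2 left of it near -1.3 on the x axis.

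The genotype comparisons in TFR and in non-TFR cells share no array. For 8 of the 9 receptors the genotype difference had the same sign in both populations, and Ccr8 was the exception. Of all genes, 52.4% were higher in KO among TFR cells and 56.1% among non-TFR cells. The share of all genes with the same sign in both was not counted, so the 8 of 9 is a description only. The difference in TFR cells minus that in non-TFR cells was -0.96 for Ccr7, -0.88 for Ccr2, -0.81 for Cxcr3, -0.80 for Ccr8 and -0.74 for Ccr6. These 5 lay among the lowest 2.5% of all genes, which ended at -0.69. None of the 9 reached 2-fold, where 0.302% of all genes were higher and 0.505% lower. Ccr7 and Ccr2 were lower in KO in both populations, and by more in TFR cells. Cxcr3 and Ccr6 were higher in KO in both populations, and by more in non-TFR cells. Ccr4 stood at -0.26, Cxcr6 at -0.08, Cxcr5 at 0.03 and Cxcr4 at 0.27, all inside the middle 95% of all genes. These values have no test, and the same arrays enter each of them.

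Profiles closest to each receptor were sought among 10135 named genes above the median level, by the largest gap on any of the 4 arrays after each gene was centred on its own mean. With 4 arrays and this many genes, close profiles are a description only. The closest profiles to Cxcr3 were Cemip2, Kcnd1 and Man1c1, with gaps of 0.06 to 0.08. For Ccr6 they were Casp4, Prelid2 and Cxcl10, with gaps of 0.08 to 0.09, and for Ccr4 Arfgef3, Ift43 and Jazf1, with gaps of 0.06 to 0.09. For Cxcr5 they were Slc15a3, B4galnt4 and Smpdl3b, with gaps of 0.06 to 0.11. The profiles of Ccr7 (Arhgap20, Gsta4 and Cnksr3, gaps of 0.11 to 0.19), Cxcr6 (Nudt1, Rnf8 and Hirip3, 0.13 to 0.16) and Ccr2 (Ifi208, Rybp and Zfas1, 0.12 to 0.21) had looser matches. Ccr8 and Cxcr4 varied by less than 1 over the arrays and were not matched.

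Other chemokine receptor genes were mostly dim. Of 14 measured ones, 10 on the list of other receptors and 4 atypical (Ackr) receptors, 3 had a mean level above that of the median gene, among them Ccrl2, a receptor-like protein that binds chemerin, and Cx3cr1, the fractalkine receptor. Ccr9, the receptor of the gut chemokine CCL25, was the only one of the 10 that was 2-fold apart in any comparison, at -1.17 between KO TFR and KO non-TFR cells. Its level was 4.30 in KO TFR and 4.93 in WT TFR cells, and 5.47 in KO non-TFR and 5.80 in WT non-TFR cells, all below the median gene. The median difference of the 10 was -0.05 between TFR and non-TFR cells in KO mice and 0.15 in WT mice. Between genotypes it was -0.11 in TFR and 0.11 in non-TFR cells. The 4 atypical receptors, which scavenge chemokines, had no member 2-fold apart.

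Ligand genes of the 9 receptors were also mostly dim, with 3 of 14 above the median gene. Cxcl10, a ligand of CXCR3 induced by interferon, had a level of 8.67 in KO TFR, 8.18 in WT TFR, 8.24 in KO non-TFR and 7.01 in WT non-TFR cells. It was 1.17 higher in WT TFR than in WT non-TFR cells (2.25-fold) and 1.23 higher in KO non-TFR than in WT non-TFR cells (2.34-fold). No other ligand was 2-fold apart in any comparison.

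Below the receptors, 21 of 23 measured signalling genes were above the median gene, and their median difference was between -0.06 and 0.03 in the 4 comparisons. Only 3 were 2-fold apart in any of them. Rasgrp2, the activator of the integrin switch Rap1, had a level of 7.73 in KO TFR, 8.71 in WT TFR, 9.17 in KO non-TFR and 10.09 in WT non-TFR cells. Pik3r5, the adaptor of the PI3-kinase that G protein-coupled receptors activate, had a level of 6.95 in KO TFR, 7.67 in WT TFR, 8.41 in KO non-TFR and 8.80 in WT non-TFR cells. Both had the order of Ccr7, with population differences of -1.44 and -1.46 in KO mice and -1.38 and -1.13 in WT mice. Gnaq, a G protein subunit, was 1.34 higher in WT TFR than in WT non-TFR cells and 0.45 higher in KO TFR than in KO non-TFR cells. Of 8 measured genes of receptor desensitization and trafficking, the kinases and arrestins that switch receptors off among them, none was 2-fold apart in any comparison.

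Of 11 measured regulators reported for these receptors, Klf2, which maintains Ccr7 and egress receptors in resting T cells, had a level of 8.58 in KO TFR, 9.34 in WT TFR, 10.16 in KO non-TFR and 10.52 in WT non-TFR cells, the order of Ccr7. Tbx21, which encodes T-bet, stood at 7.64 in KO TFR, 7.86 in WT TFR, 7.53 in KO non-TFR and 6.80 in WT non-TFR cells. Its low array was WT non-TFR, as for Cxcr3, but its highest was WT TFR, where that of Cxcr3 was KO TFR. Ascl2, a factor known to induce Cxcr5, had a level of 7.00 in KO TFR, 6.28 in WT TFR, 5.76 in KO non-TFR and 5.36 in WT non-TFR cells, the order of Cxcr5. Bcl6, the follicular T cell factor, had a level of 9.94 in KO TFR, 8.82 in WT TFR, 8.10 in KO non-TFR and 7.84 in WT non-TFR cells. No other regulator was 2-fold apart in any comparison, Foxo1, Gata3, Rora and Stat3 among them. Foxo1 had the order of Ccr7, at 9.94 in KO TFR, 10.19 in WT TFR, 10.73 in KO non-TFR and 10.94 in WT non-TFR cells. How many of all genes share each order was not counted, and a link between regulator and receptor was not tested.

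**Figure D4:**
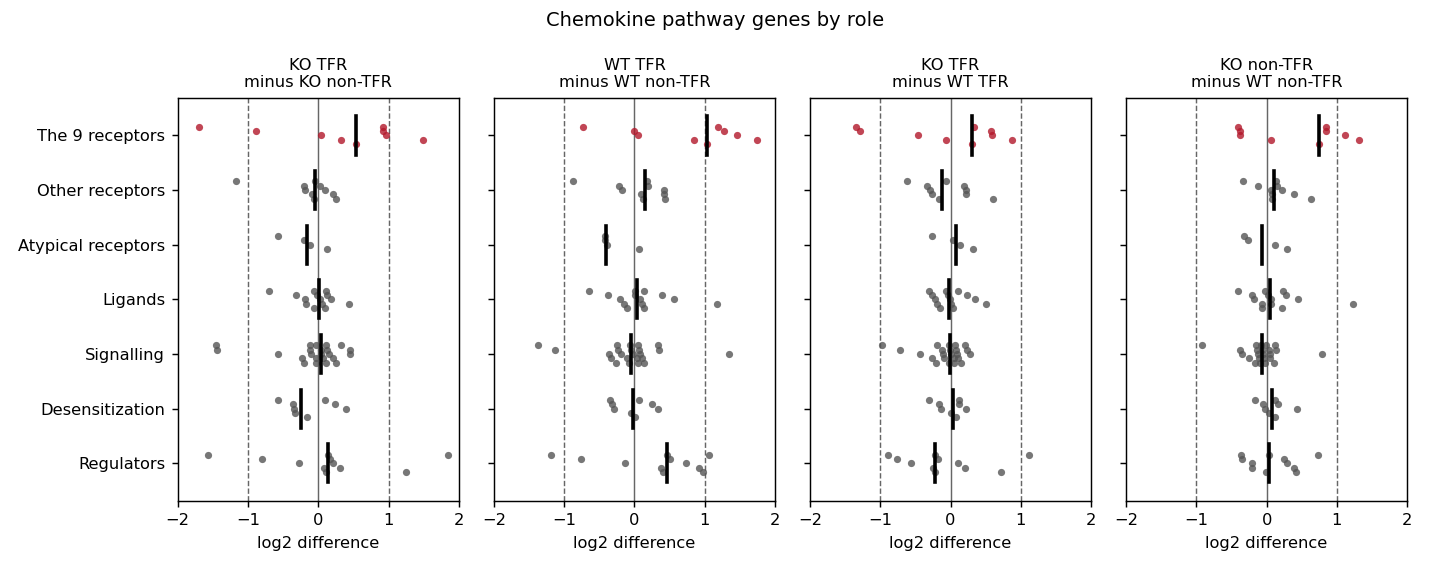
Log2 differences (x axis) in the 4 comparisons (panels) for the 9 receptors (red) and for 6 lists of chemokine pathway genes (grey), 1 point per gene, with the median as a black bar and dashed lines at 2-fold. The 9 receptors have medians of 0.53, 1.04, 0.31 and 0.74 from left to right, and the signalling genes have medians between -0.06 and 0.03.

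Several of these receptors are also made by B cells (Cxcr5, Ccr6, Ccr7, Cxcr4) or myeloid cells (Ccr2), and markers of those cells were read on the same arrays. Of 7 measured B cell markers 2 had a mean above the median gene, Cd22 and Cd79b, and Ms4a1, the defining marker CD20, was at 3.98 in KO TFR, 4.02 in WT TFR, 4.07 in KO non-TFR and 4.12 in WT non-TFR cells. The summed linear signal of the 7 was 1130 in KO TFR, 830 in WT TFR, 630 in KO non-TFR and 503 in WT non-TFR cells. The order of that sum rested on Cd22. Without it the other 6 summed to 514 in KO TFR, 522 in WT TFR, 498 in KO non-TFR and 439 in WT non-TFR cells. Pax5, with a mean under the median gene, also had the order of the full sum. Its level was 6.10 in KO TFR, 5.69 in WT TFR, 5.18 in KO non-TFR and 5.04 in WT non-TFR cells. Blk was 0.67 higher in KO TFR than in KO non-TFR cells and 0.06 lower in WT TFR than in WT non-TFR cells. In each genotype 4 of the 7 were higher and 3 lower in TFR cells, beside 49.98% of all genes higher in KO and 51.7% in WT mice. Cd22 differed by 2.22 between TFR and non-TFR cells of KO mice and by 2.28 between those of WT mice, higher in TFR each time. Of 10 myeloid and dendritic cell markers 1 was above the median gene, Cd68, at 9.17 in KO TFR and 7.97 in WT TFR cells. Csf1r was between 5.21 and 5.56 on the 4 arrays. In each genotype 8 of the 10 were higher and 2 lower in TFR than in non-TFR cells. The share of all genes higher in TFR cells was 49.98% in KO and 51.7% in WT mice. Among the dim ones, Itgam was 0.57 and Tyrobp 0.53 higher in KO TFR than in KO non-TFR cells. The summed signal of the 10 was 940 in KO TFR, 591 in WT TFR, 496 in KO non-TFR and 487 in WT non-TFR cells. Most of the excess in KO TFR cells was Cd68: without it the other 9 summed to 363 in KO TFR, 340 in WT TFR, 304 in KO non-TFR and 309 in WT non-TFR cells. The part of other cells in the receptor levels was not tested.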

How the data were processed

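Biotin-labelled cRNA from total RNA of sorted cells was read on arrays (Affymetrix Mouse Gene 2.0 ST), per the labels' protocols. The 4 samples form 4 groups of 1 array, each assigned by its title. The deposited values are log2 expression per transcript cluster (called a probe), as computed by the authors, with the log base inferred from their range. The submitters' processing notes name MAS5, and the scaling is not given in the sources used here.

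Deposited medians spanned 0.105, over a limit of 0.1, so all 41345 probes were quantile-normalized with limma 3.58.1 in R 4.3.3, which would also remove a true shift of most genes. Of the probes, 23521 have 1 gene symbol in the platform annotation. The brightest probe by mean was taken per gene. All 9 receptors matched the RefSeq gene table by Entrez identifier. With 1 array per group, differences are descriptions without a test, and genes at least 2-fold apart were counted over all 22180 genes. The steps were tested on simulated data. The receptors, lists and limits were chosen with earlier results of these data known. Named genes were the receptors, up to 4 members at least 2-fold apart per list, the 3 closest profiles, and markers. Ccrl2, Cx3cr1, Csf1r, Ms4a1, Cd79b, Pax5, Blk, Itgam, Tyrobp and regulators under 2-fold were named after their values were seen. Leaving out Cxcr5, Cd22 or Cd68 was chosen after seeing the data. Alternatives were other scalings, the mean of all probes, filters on dim genes, a floor at the 20th percentile and a 1.5-fold limit.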

Additional observations from a re-analysis of the deposited data

Results flagged for a closer look

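The genotype difference of Ccr8 ran in opposite directions in the 2 populations: -0.06 in TFR cells, where the KO level was 8.47 and the WT level 8.53, and 0.74 in non-TFR cells, where the KO level was 8.43 and the WT level 7.68. The difference in TFR cells minus that in non-TFR cells was -0.80, and between -0.82 and -0.77 over the scalings and the floor tried. The value in TFR cells is close to 0 on single arrays, and the difference between the populations was not tested.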

How the results depend on the processing

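No paired analysis was possible because each group has 1 array, and no replicate could be left out. The number of receptors at least 2-fold apart was 5 as deposited and 6 at a 1.5-fold limit for KO TFR against KO non-TFR cells, where it was 2. At 1.5-fold it was 4 for KO TFR against WT TFR cells and 5 for KO non-TFR against WT non-TFR cells, both 2 in the report. With genes above the median level, 8 receptors remain and 1 was 2-fold apart between KO TFR and WT TFR cells, as Ccr2 drops out. With genes above the 75th percentile, 6 receptors remain, with 3 for WT TFR against WT non-TFR cells, 1 for KO TFR against WT TFR cells and 1 for KO non-TFR against WT non-TFR cells. Without Cxcr5, a choice made after seeing the data, 1 receptor was 2-fold apart between KO TFR and KO non-TFR cells, and 4, 2 and 2 in the other comparisons. The median for KO TFR against KO non-TFR cells moved to 0.68 as deposited and 0.73 above the median level. The other 58 counts and medians under the other scalings, probe rule, filters, floor and fold limit stayed within 1.5 times or 0.1. Among single receptors, the only changes of sign were in values near 0, namely Ccr2 between the WT populations (0.09 as deposited, 0.00 with cyclic loess) and Cxcr5 between the genotype differences (-0.01 with 75th percentile centring). Over all genes, the higher and lower counts at 1.5-fold were 1742 and 1527 for KO TFR against KO non-TFR, 1927 and 1325 for WT TFR against WT non-TFR, 402 and 275 for KO TFR against WT TFR, and 541 and 225 for KO non-TFR against WT non-TFR cells. At 2-fold they were 494 and 262, 596 and 261, 64 and 36, and 96 and 17 in the same order. Above the median level the 2-fold counts were 336 and 152, 458 and 151, 49 and 26, and 86 and 14, and above the 75th percentile 84 and 73, 157 and 58, 8 and 14, and 38 and 1; both filters test fewer genes. Without detection calls, signal over background limits the dim receptors Ccr2 and Cxcr6.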

Other observations

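Ccr2 and Cxcr6 belong to a cluster of receptor genes on the RefSeq annotation that runs from Ccr9 over Cxcr6, Xcr1, Ccr1, Ccr1l1 and Ccr3 to Ccr2. Of these 7, 6 were lower in KO TFR than in WT TFR cells, from -1.29 for Ccr2 and -0.62 for Ccr9 to -0.06 for Ccr1. Xcr1 was 0.22 higher, and 52.4% of all genes were higher in this comparison. In non-TFR cells 4 were lower in KO and 3 higher, between -0.41 for Ccr2 and 0.22 for Ccr1. There 56.1% of all genes were higher in KO. Only Cxcr6 had a mean level above the median gene, so most of these values lie where the arrays resolve little. The cluster was chosen after its values were seen and gets no test.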
